A study of Homo sapiens with 6 samples.

Results

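The RAS-MAPK genes described here are 31 listed genes of the pathway that runs from RAS proteins through the RAF, MEK and ERK kinases to early transcription, in 3 roles: core signalling components, feedback genes with other inhibitors, and output genes. Each was taken where an array feature carried its symbol alone, with the brightest feature per gene, which gave 28 of the 31 genes and 28 of 18417 genes measured in all. NRAS, BRAF and RASA1 had no such feature and were not analysed here. The arrays hold total RNA of 2 groups of human prostate epithelial cells. RWPE-1, a non-tumorigenic line from adult prostate epithelium that carries papillomavirus oncogenes, was untreated and was sampled at passages 18, 38 and 42. CAsE-PE is the malignant line that arose from RWPE-1 under continuous 5 µM sodium arsenite, and it was sampled after 30, 33.5 and 35 weeks of exposure. Both were kept in serum-free keratinocyte medium whose supplements include epidermal growth factor, an activator of this pathway, and bovine pituitary extract, and the time from the last medium change to harvest is not given in the labels. Each group is 1 cell line followed over time, without untreated cells of matched age, and nothing in the labels says that the arrays of a group came from separate cultures, so that p-values reflect only the spread of these arrays, which may be technical, and arsenite exposure, transformation and time in culture cannot be told apart.

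RAS proteins are membrane switches that are loaded with GTP by exchange factors such as SOS1, brought to activated receptors by the adaptor GRB2, and emptied again by GTPase activators such as NF1. Active RAS recruits RAF kinases, which phosphorylate the MEK kinases, which phosphorylate ERK, and ERK drives ETS and AP-1 factor genes. The same transcriptional response includes its own brakes, the Sprouty and SPRED proteins and the dual-specificity phosphatases, so that transcripts of brakes and outputs are widely read as a record of pathway activity. In cultured prostate epithelial cells the epidermal growth factor receptor is a main input to it.

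Array medians lay between 91.7 and 97.2 intensity units, and the correlation of log2 values over genes was 0.985 to 0.995 within groups and 0.956 to 0.969 between them. The labelled cell type was checked with marker genes. The basal keratin gene KRT5 was at 11.80 to 12.10 on the log2 scale on all arrays, and 11 of 12 fibroblast, leukocyte and endothelial markers lay among the dimmest 33.3% of genes, with a mean of the 12 at 5.57 to 5.69 in RWPE-1 and 5.51 to 5.58 in CAsE-PE. The luminal keratin genes KRT8 and KRT18 were at 11.03 to 11.34 and 10.38 to 10.53. Of 3 luminal markers 0 passed the threshold used below, and of 2 epithelial markers CDH1 was higher in CAsE-PE by 0.39 and EPCAM did not pass. Of 5 basal markers, 3 were lower in CAsE-PE: KRT14 (log2 difference -1.60), KRT15 (-1.77) and LAMB3 (-1.48). The mean of the 5 was 10.33 to 10.64 in RWPE-1 against 9.28 to 9.85 in CAsE-PE. The part of this difference in the results below was not tested.

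The promoters of 3 output genes are shown because they carry the contrasts described below: JUN and PHLDA1 had the largest falls of all 28 genes, and EGR1 differed most between arrays of 1 group. Each sequence is RefSeq's (GRCh38.p14) and runs 5′ to 3′ on the gene's strand from 250 bases before to 50 bases after the annotated start. EGR1 is at chr5:138465229-138465528 (plus strand), JUN at chr1:58783998-58784297 (minus strand) and PHLDA1 at chr12:76031727-76032026 (minus strand). Capitals mark CArG boxes, the binding motif of serum response factor, in EGR1, the motif TGACNTCA, bound by AP-1 and CREB-type dimers, in JUN, and the ETS core CCGGAA or its reverse complement in PHLDA1.
EGR1: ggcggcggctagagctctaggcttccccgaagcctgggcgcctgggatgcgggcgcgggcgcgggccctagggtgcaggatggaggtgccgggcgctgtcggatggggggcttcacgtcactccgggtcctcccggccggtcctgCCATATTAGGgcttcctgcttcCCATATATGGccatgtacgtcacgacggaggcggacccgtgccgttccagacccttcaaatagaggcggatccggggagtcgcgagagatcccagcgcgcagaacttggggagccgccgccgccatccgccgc
JUN: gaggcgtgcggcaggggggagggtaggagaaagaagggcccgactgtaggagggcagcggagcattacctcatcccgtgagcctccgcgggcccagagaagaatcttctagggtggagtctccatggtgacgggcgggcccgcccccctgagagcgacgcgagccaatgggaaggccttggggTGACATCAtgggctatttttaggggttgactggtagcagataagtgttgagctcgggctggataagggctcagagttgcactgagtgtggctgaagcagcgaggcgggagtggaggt
PHLDA1: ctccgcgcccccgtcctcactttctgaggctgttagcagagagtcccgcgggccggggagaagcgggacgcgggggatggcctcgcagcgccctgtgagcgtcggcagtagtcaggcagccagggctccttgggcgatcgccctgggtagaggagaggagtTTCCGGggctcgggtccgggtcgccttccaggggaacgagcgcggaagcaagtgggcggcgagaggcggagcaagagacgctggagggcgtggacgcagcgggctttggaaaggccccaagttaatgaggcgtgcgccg
The EGR1 promoter held 2 CArG boxes, at -105 to -96 and -83 to -74 from the start, the JUN promoter 1 match to TGACNTCA at -67 to -60, and the PHLDA1 promoter 1 ETS core at -89 to -84. Promoters were found for 21 of the 28 genes, 30 promoters in all since some genes have several starts, and both strands were searched. A CArG box was found in 1 of the 30, against 1.29% of all 35116 promoters of the same length, TGACNTCA in 3 of the 30 (JUN, EPHA2 and NF1) against 7.72%, the AP-1 motif TGANTCA in 2 of the 30 (SPRED2 and SPRED3) against 7.71%, and CCGGAA in 7 of the 30 against 17.2%. No match to TGACNTCA can contain one to TGANTCA. These matches describe letters only and say nothing of binding.

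The comparison between the lines asks which RAS-MAPK transcripts differ between the immortal and the arsenite-transformed cells. Of the 28 genes, 2 rose and 4 fell in CAsE-PE, and 22 were not called. A gene was called at a Benjamini-Hochberg adjusted p under 0.05 in limma over all 18417 genes. The 6 calls are 21.4% of the 28 genes, where 17.7% of all genes were called, 9.04% upward and 8.71% downward. In such bulk RNA, fewer cells with a transcript and less of it per cell cannot be told apart. The genes moved both ways: 14 differences were positive and 14 negative, and their median was -0.05 against -0.06 over all genes. Differences are given as the CAsE-PE mean less the RWPE-1 mean, in log2(intensity + 1) units, with the fit's standard error (SE) and n = 3 arrays per group. In size, 24 of the 28 were smaller than 0.5.

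**Figure D1:**
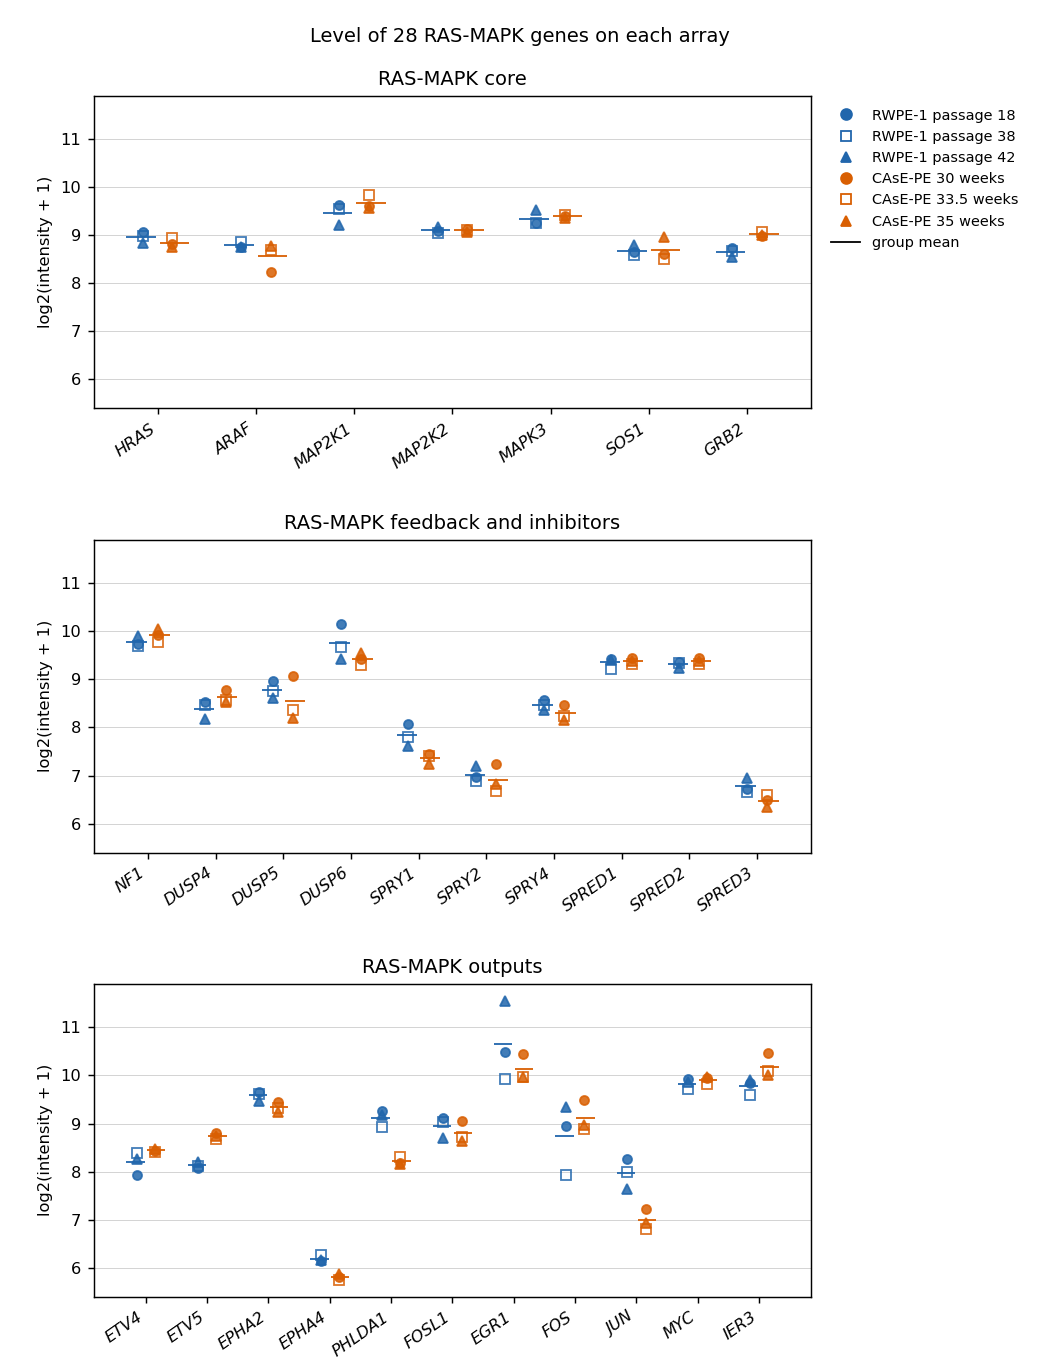
Level of each measured RAS-MAPK gene on each array, as log2(intensity + 1), in panels for core, feedback and output genes; symbols mark passages of RWPE-1 (blue) and weeks of exposure of CAsE-PE (orange), and lines mark group means of 3 arrays. Levels can be compared between arrays of a gene, not between genes; PHLDA1, JUN and ETV5 show groups that are clearly apart, and EGR1 and FOS show the widest scatter within RWPE-1.

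Of the 7 core genes measured, 1 rose, 0 fell and 6 were not called, where 17.7% of all genes were called. Their median difference was 0.01. The gene that rose was GRB2, the adaptor that links receptors to SOS proteins (feature 8018364, chromosome 17). It was at 8.74, 8.66 and 8.54 at passages 18, 38 and 42 and at 8.99, 9.07 and 8.99 at 30, 33.5 and 35 weeks. Every CAsE-PE array was above every RWPE-1 array, by at least 0.25. The means were 8.65 ± 0.10 and 9.02 ± 0.05 (SD, n = 3), a difference of 0.37 (SE 0.10, adjusted p = 0.0326). The 24 nearest genes on the chromosome had a median shift of 0.29 in the same direction, and with it taken off on each array GRB2 differed by 0.07 (adjusted p = 0.704). Its call was also lost with any 1 array other than the 30-week array left out (highest adjusted p = 0.101, without passage 38). The difference with 1 array left out in turn was 0.31 to 0.41.

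The exchange factor gene SOS1 and the kinase genes differed by less than their spread allowed to be called. MAP2K2, which encodes the ERK kinase MEK2, was at 9.09, 9.05 and 9.17 in RWPE-1 and at 9.13, 9.12 and 9.07 in CAsE-PE. The groups overlapped, and the 95% interval of the difference ran from -0.21 to 0.22. MAP2K1, which encodes MEK1, was at 9.62, 9.53 and 9.22 and then at 9.60, 9.83 and 9.56. Its groups overlapped as well, its difference of 0.21 had an interval from -0.10 to 0.51, and its neighbours on chromosome 15 had a median shift of 0.28. MAPK3, which encodes the kinase ERK1, differed by 0.06 (interval -0.19 to 0.30) and SOS1 by 0.01 (interval -0.29 to 0.31). HRAS, the RAS switch gene measured here, was at 9.06, 8.97 and 8.83 and at 8.81, 8.94 and 8.75, a difference of -0.12 (interval -0.36 to 0.12). ARAF, a RAF kinase gene on the X chromosome, was at 8.75, 8.86 and 8.75 in RWPE-1 and at 8.23, 8.69 and 8.77 in CAsE-PE. The 30-week and 33.5-week arrays lay below every RWPE-1 array, the first by far the most, and without the 30-week array the difference was -0.06. With all arrays it was -0.23 (interval -0.56 to 0.10), which equalled the median shift of its neighbours, -0.23.

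**Figure D2:**
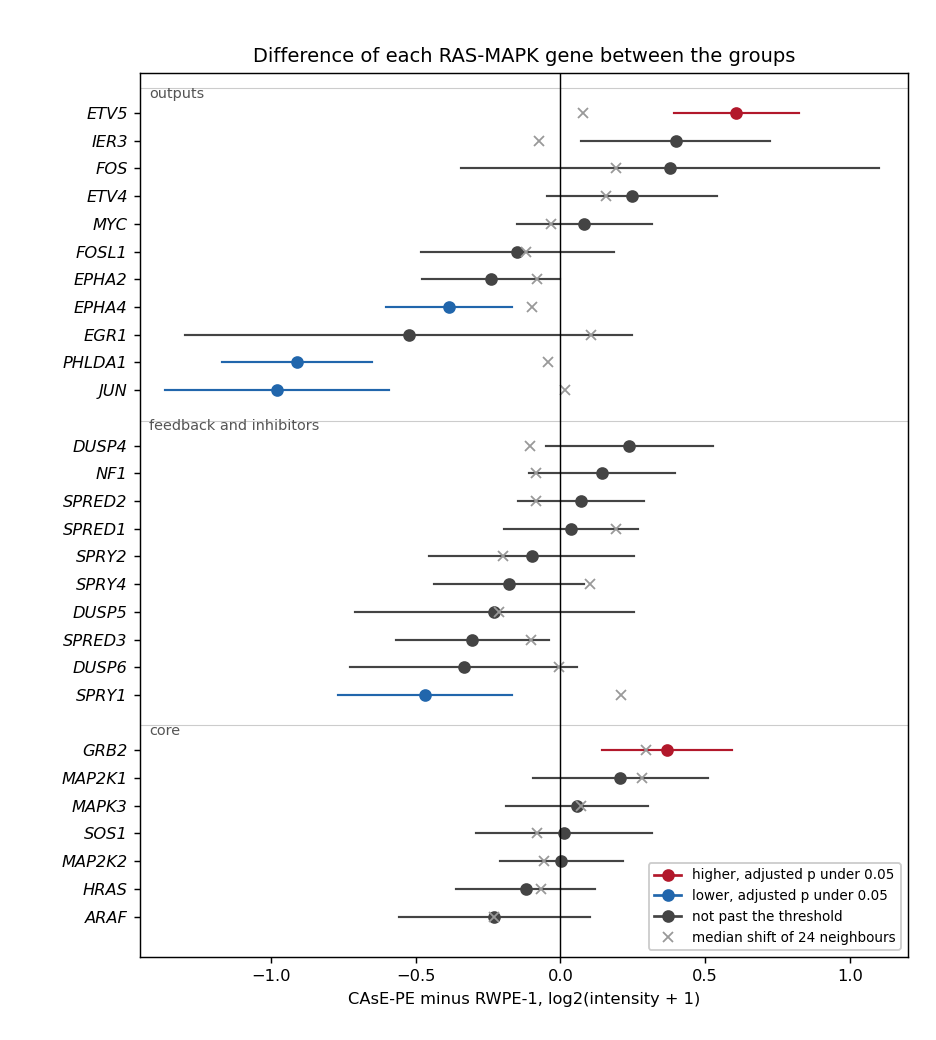
Difference between the groups for each gene (points, CAsE-PE minus RWPE-1, log2 scale) with its 95% interval from the limma fit (lines), ordered by size within each role; crosses mark the median shift of the 24 nearest genes on the chromosome. ETV5 and GRB2 lie above 0 and JUN, PHLDA1, SPRY1 and EPHA4 below 0 past the threshold. The cross lies near the point for GRB2, ARAF and DUSP5, among others, and near 0 for JUN and PHLDA1.

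Of the 10 feedback and inhibitor genes measured, 0 rose, 1 fell and 9 were not called, where 17.7% of all genes were called. Their median difference was -0.14. At an unadjusted p under 0.05 there were 2 of the 10, where 32.4% of all genes were below it. SPRY1, a Sprouty inhibitor of receptor signalling to RAS (feature 8097282, chromosome 4), was at 8.08, 7.80 and 7.62 at passages 18, 38 and 42 and at 7.44, 7.41 and 7.24 at 30, 33.5 and 35 weeks. The groups did not overlap, and the highest passage was the nearest to CAsE-PE. The means were 7.83 ± 0.23 and 7.37 ± 0.11, a difference of -0.47 (SE 0.13, adjusted p = 0.0400), against a median shift of 0.21 among its neighbours. The call was lost after centring each array on its median (-0.42, adjusted p = 0.0738) and without the passage 18, passage 38, 33.5-week or 35-week array (highest adjusted p = 0.141, without 35 weeks). The difference with 1 array left out in turn was -0.58 to -0.34. The other Sprouty genes overlapped between the groups: SPRY2 differed by -0.10 (SE 0.16) and SPRY4 by -0.18 (SE 0.12).

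The SPRED genes encode membrane-bound inhibitors that bring NF1 to RAS. SPRED1 was at 9.42, 9.22 and 9.41 and at 9.44, 9.33 and 9.39, and SPRED2 at 9.35, 9.35 and 9.24 and at 9.44, 9.33 and 9.39. Both overlapped between the groups, with differences of 0.04 (interval -0.19 to 0.27) and 0.07 (interval -0.15 to 0.29). SPRED3 was at 6.72, 6.67 and 6.96 and at 6.50, 6.59 and 6.35, so that all CAsE-PE arrays were lower, but its difference of -0.30 (SE 0.12) was not called (adjusted p = 0.109). NF1, a GTPase activator that switches RAS off, differed by 0.14 (SE 0.11), with overlapping groups. It had 2 dimmer features with identical values on all arrays, whose difference was 0.13.

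Among the feedback genes, the phosphatase genes DUSP5 and DUSP6 had the widest range within a group, 0.89 for DUSP5 in CAsE-PE and 0.72 for DUSP6 in RWPE-1. DUSP6, whose product is specific for ERK, was at 10.15, 9.67 and 9.43 at passages 18, 38 and 42 and at 9.42, 9.29 and 9.54 in CAsE-PE. The passage 18 array stood highest and the passage 42 array lay below the 35-week array. The group difference of -0.33 (SE 0.17) was not called (adjusted p = 0.218), and without the passage 18 array it was -0.13. DUSP5, which encodes a nuclear phosphatase of ERK, was at 8.96, 8.75 and 8.60 in RWPE-1 and at 9.08, 8.36 and 8.19 at 30, 33.5 and 35 weeks. The 30-week array was above every RWPE-1 array and the later arrays below them. Without the 30-week array DUSP5 was lower in CAsE-PE by 0.50 (difference -0.50, adjusted p = 0.0367), where with it the difference was -0.23 (adjusted p = 0.487). The neighbours of DUSP5 had a median shift of -0.21. With that shift taken off on all arrays its difference was -0.017 (adjusted p = 0.969). DUSP4, another nuclear phosphatase gene, was at 8.54, 8.46 and 8.17 and at 8.78, 8.57 and 8.53, with overlapping groups and a difference of 0.24 (SE 0.13, adjusted p = 0.232).

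Of the 11 output genes, 1 rose, 3 fell and 7 were not called, where 17.7% of all genes were called. Their median difference was -0.15. At an unadjusted p under 0.05 there were 6 of the 11, where 32.4% of all genes were below it. PHLDA1, a transcript induced by ERK signalling (feature 7965040, chromosome 12), was at 9.25, 8.93 and 9.18 in RWPE-1 and at 8.18, 8.29 and 8.16 in CAsE-PE. The arrays of the groups were separated by 0.64, more than the range within each group. The means were 9.12 ± 0.17 and 8.21 ± 0.07, a difference of -0.91 (SE 0.11, adjusted p = 0.000862) or a 1.88-fold fall. Its neighbours had a median shift of -0.04, and with 1 array left out in turn the adjusted p was 0.00213 to 0.00608.

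ETV5, an ETS transcription factor gene that ERK signalling induces (feature 8092578, chromosome 3), moved the other way. It was at 8.08, 8.12 and 8.20 in RWPE-1 and at 8.80, 8.68 and 8.74 in CAsE-PE. Each group spanned at most 0.12, and they were 0.49 apart. The means were 8.13 ± 0.06 and 8.74 ± 0.06, a difference of 0.61 (SE 0.10, adjusted p = 0.00272) or a 1.52-fold rise, with a neighbour shift of 0.08 and adjusted p-values of 0.00490 to 0.0179 with 1 array left out. Its close relative ETV4 was at 7.92, 8.40 and 8.26 and at 8.43, 8.42 and 8.48. All CAsE-PE arrays were higher, by as little as 0.02, and the difference of 0.25 (SE 0.13) was not called (adjusted p = 0.220).

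JUN, an AP-1 subunit gene (feature 7916609, chromosome 1), had the largest difference of the 28 genes. It was at 8.27, 7.99 and 7.64 at passages 18, 38 and 42 and at 7.23, 6.81 and 6.93 at 30, 33.5 and 35 weeks. The groups were 0.41 apart, with passage 42 the nearest to CAsE-PE. The means were 7.97 ± 0.31 and 6.99 ± 0.22, a difference of -0.98 (SE 0.17, adjusted p = 0.00459) or a 1.97-fold fall, and its neighbours had a median shift of 0.02. With 1 array left out in turn its adjusted p was 0.00294 to 0.0231. JUN is also induced by the stress kinase JNK, so its level is not a readout of RAS-MAPK signalling alone.

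The ephrin receptor genes, whose transcripts respond to RAS-MAPK signalling, were lower on every CAsE-PE array. EPHA4 was at 6.14, 6.27 and 6.17 and at 5.80, 5.75 and 5.87, with groups 0.27 apart. It fell by 0.39 on the log2 scale (difference -0.39, SE 0.10, adjusted p = 0.0236), but it lies among the dimmest 33.3% of genes, where a value cannot be told from background here. Its call was lost without the passage 18, passage 38, 33.5-week or 35-week array (highest adjusted p = 0.107, without passage 38) and with the neighbour shift of -0.10 taken off (-0.29, adjusted p = 0.0929). The difference with 1 array left out in turn was -0.42 to -0.35. EPHA2 was at 9.66, 9.61 and 9.48 and at 9.45, 9.33 and 9.24. All CAsE-PE arrays were lower, by at least 0.02, and the difference of -0.24 (SE 0.11) was not called (adjusted p = 0.152).

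Immediate-early genes are induced within minutes of a growth factor pulse. Of the 28 genes, EGR1 and FOS had the widest spread within groups. EGR1, a zinc finger factor gene, was at 10.49, 9.93 and 11.54 at passages 18, 38 and 42 and at 10.44, 9.97 and 9.96 in CAsE-PE. FOS, another AP-1 subunit gene, was at 8.96, 7.92 and 9.35 and at 9.49, 8.89 and 8.98. Within RWPE-1 they spanned 1.61 and 1.42 on the log2 scale, and 99.5% and 99.3% of all genes had a smaller standard deviation within groups. The groups overlapped for both. EGR1 differed by -0.52 (SE 0.34, adjusted p = 0.319), by -0.08 without the passage 42 array and by -0.89 without the passage 38 array. FOS differed by 0.38 (SE 0.32, adjusted p = 0.440), by -0.03 without the passage 38 array, by 0.68 without the passage 42 array and by 0.19 without the 30-week array. IER3, an early gene of cell survival, was at 9.85, 9.59 and 9.90 and at 10.46, 10.09 and 9.998. All CAsE-PE arrays were higher, and the difference of 0.40 (SE 0.14) was not called (adjusted p = 0.0908). It had 2 other features with identical values on all arrays, whose difference was 0.34.

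EGR1, FOS and IER3 shared part of their order over the arrays. In RWPE-1 all 3 were highest at passage 42 and lowest at passage 38, and in CAsE-PE all 3 were highest at 30 weeks, while the lowest CAsE-PE array was the 33.5-week one for FOS and the 35-week one for EGR1 and IER3. The shared order was found in 5 of the 28 genes and in 8.05% of all genes. The 5 are MAP2K2, SPRY2 and the 3 genes EGR1, FOS and IER3 from which the order was taken. Their share of the 28 can therefore not be compared with the share of all genes. Among the further pathway genes described below the order was found in 5 of 22 core genes (MKNK2, RASGRP1, RIT1, SHC1 and SOS2). The same held for 2 of 19 feedback genes (DUSP10 and RASAL3) and 3 of 23 output genes (EGR3, FOSL2 and JUNB). In the epidermal growth factor receptor family it was found in 2 of 11 genes (EGF and HBEGF). The order was thus not limited to EGR1, FOS and IER3. This shared order was noticed after the values were seen, and its relation to harvest or feeding was not tested. JUN did not share it, being highest at passage 18 in RWPE-1.

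**Figure D3:**
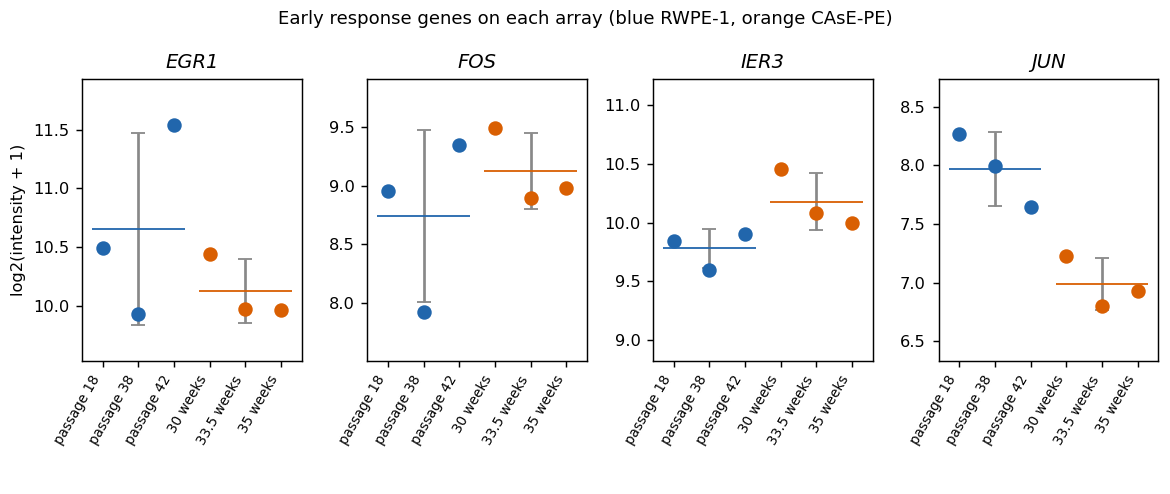
EGR1, FOS, IER3 and JUN on each array as log2(intensity + 1), with group means (horizontal lines) and SD (grey bars, n = 3); all panels span the same number of log2 units. EGR1 and FOS peak at passage 42 and are lowest at passage 38 in RWPE-1, whereas the JUN arrays of CAsE-PE all lie below those of RWPE-1.

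MYC, a growth-promoting transcription factor gene, and FOSL1, which encodes the AP-1 subunit FRA1, are further outputs of the pathway. MYC was at 9.93, 9.71 and 9.85 and at 9.95, 9.83 and 9.96, with overlapping groups and a difference of 0.08 (interval -0.15 to 0.32). FOSL1 was at 9.12, 9.03 and 8.71 and at 9.05, 8.73 and 8.64, with overlapping groups and a difference of -0.15 (interval -0.48 to 0.18).

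Over all 28 genes the groups did not overlap for 10, which is 35.7%, against 38.9% of all genes. For 4 of these the CAsE-PE arrays were higher (16.1% of all genes) and for 6 they were lower (22.8% of all genes).

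A limma model with the group tested for a slope over passages of RWPE-1 and over weeks of exposure in CAsE-PE. None of the 28 genes passed for passage, 0 against 4 genes or 0.0217% of all, and 4 of the 28 had an unadjusted p under 0.05, against 5.82% of all genes. DUSP6 had the steepest slope of these, -0.28 per 10 passages (SE 0.08, adjusted p = 0.699), followed by JUN (-0.22, adjusted p = 0.833), SPRY1 (-0.18, adjusted p = 0.848) and ETV4 (0.17, adjusted p = 0.848). Each of these 4 slopes had the sign of that gene's difference between the lines. Among the other genes the signs agreed for some, such as PHLDA1 and ETV5, and differed for others, such as GRB2 and EPHA4. A relation between slope and difference was not tested. For weeks, 0 of the 28 passed against 46 genes or 0.250% of all, and 3 of the 28 had an unadjusted p under 0.05, against 11.3% of all genes. DUSP5 came nearest, with -0.18 per week (SE 0.04, adjusted p = 0.0912).

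Other genes of the pathway were read from 3 further lists. Of 22 other core genes, 2 rose and 4 fell, where 17.7% of all genes were called. The exchange factor gene SOS2 (0.82, SE 0.23) and the ribosomal S6 kinase gene RPS6KA2 (0.57, SE 0.13) rose. MRAS (-0.89, SE 0.12) and RRAS (-0.69, SE 0.10), which encode relatives of RAS, fell with the adaptor gene SHC1 (-0.54, SE 0.11), and the fourth fall was in the ribosomal S6 kinase gene RPS6KA1 (-0.49). MRAS lies among the dimmest 33.3% of genes, as EPHA4 does, and without those genes 3 of the other core genes fell. Leaving out the passage 38 array ended the SOS2 call (adjusted p = 0.128), and 0 other core genes rose without the passage 18 or the passage 38 array. The SOS2 call was also lost after quantile normalisation (adjusted p = 0.0599) and with its neighbours' shift taken off (adjusted p = 0.0678). The calls of MRAS, RRAS and SHC1 stayed past the threshold with each array left out.

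Of 19 other feedback genes, 2 rose and 3 fell, where 17.7% of all genes were called. DUSP1, which encodes a nuclear phosphatase of the stress kinases and ERK, was at 9.58, 9.04 and 9.89 in RWPE-1 and at 11.55, 11.55 and 11.63 in CAsE-PE (difference 2.07, SE 0.19, adjusted p = 0.000154, 4.20-fold). ERRFI1, which encodes an inhibitor of the epidermal growth factor receptor, was at 11.05, 10.65 and 11.21 and at 11.78, 11.94 and 12.11 (difference 0.98, SE 0.16, adjusted p = 0.00307). Both lay above RWPE-1 on every CAsE-PE array, and both stayed past the threshold with each array left out. What raised them was not tested, and the level of DUSP1 is not a readout of RAS-MAPK signalling alone. DUSP16 (-0.82), the RAS inhibitor gene RASA3 (-0.67) and DUSP2 (-0.42) fell. With the shift of their neighbours taken off, the differences of DUSP16 and RASA3 were -0.29 (adjusted p = 0.277) and -0.28 (adjusted p = 0.108). DUSP2 was then at -0.38 (adjusted p = 0.0517), so that its call was lost too. Of these 3 genes only RASA3 still passed without the passage 38 or the 35-week array (1 gene).

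Of 23 other output genes, 0 rose and 4 fell, where 17.7% of all genes were called. CCN1, a matrix protein gene (-1.02, SE 0.29), ETS1, an ETS factor gene (-0.91, SE 0.22), and CCND1, the cyclin D1 gene (-0.65, SE 0.17), had the largest falls, and the fourth was in FOSB, an AP-1 subunit gene (-0.35). The groups of CCN1 overlapped. Leaving out the passage 38 array ended the first 3 calls (adjusted p = 0.125, 0.0904 and 0.113), and 0 of this list fell without the passage 38 or the 35-week array. Of 11 genes of the epidermal growth factor receptor family and its ligands, 2 rose and 2 fell, where 17.7% of all genes were called. EPGN (1.37, SE 0.22) and ERBB3 (0.69, SE 0.16) rose, and NRG1 (-1.79, SE 0.18) and TGFA (-0.76, SE 0.19) fell. The calls of ERBB3 and TGFA were lost with several single arrays left out (highest adjusted p = 0.0777 without passage 38 and 0.0992 without 35 weeks). The receptor gene EGFR differed by -0.14 (SE 0.10), with overlapping groups. At an unadjusted p under 0.05 there were 6 of the 23 other output genes, 10 of 19 other feedback genes and 9 of 22 other core genes. The same held for 6 of the 11 genes of the receptor family and 1 of the 7 core genes, against 32.4% of all genes.

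**Figure D4:**
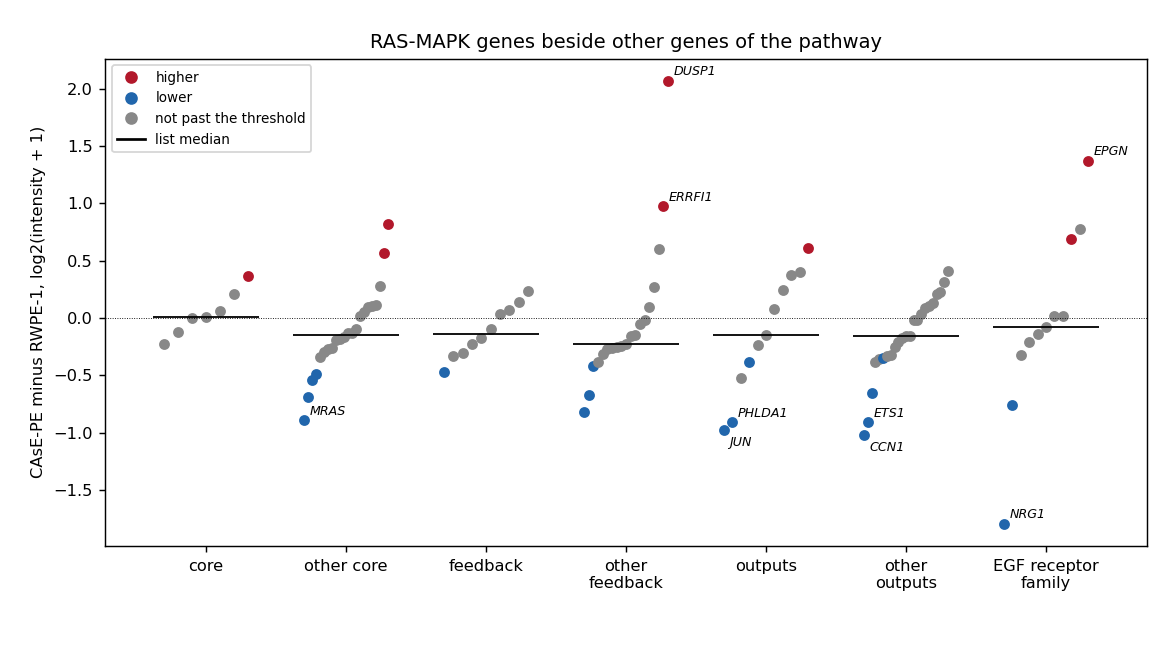
Difference between the groups (CAsE-PE minus RWPE-1, log2 scale) for each measured gene of the 3 roles, of 3 lists of other pathway genes and of the epidermal growth factor receptor family; colours mark genes past the threshold and lines mark list medians. List medians lie between -0.23 and 0.01, with single genes such as DUSP1, EPGN and NRG1 far from them.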

How the data were processed

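The authors deposited a table of linear intensities, 33252 features by 6 single-colour arrays; linearity was judged from the range, which reaches 16617. Per the labels' protocols, total RNA was isolated by Trizol and column and converted to biotin-labelled target with an Ambion kit. How the background was corrected and the arrays normalised is not stated in the labels. No detection call was used, and a dim value may be background. In the supplied platform annotation 19460 features had 1 symbol, 1754 had several and were left out, and 12038 were unlisted; 0 symbols needed an update. The brightest feature stood for each of 18417 genes.

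The values were used as log2(intensity + 1), which understates changes of dim genes. The group test was limma's moderated two-sided test (version 3.58.1, R 4.3.3), with 4 residual degrees of freedom, Benjamini-Hochberg adjustment over all genes and a threshold of 0.05; slopes over passage and weeks came from a model with 2. Neighbours were the 12 genes on each side in RefSeq order outside the dimmest 33.3%. The fits were tested on simulated data in which the arrays were independent. Such data cannot show whether the arrays of a group are independent here. The number of arrays limits the precision. The 31 genes, the other lists and the alternatives were chosen with earlier results of these data known. All measured members are described, and up to 3 called rises and 3 called falls of each other list are named; further genes were chosen after their values were seen.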

Additional observations from a re-analysis of the deposited data

How the results depend on the processing

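ETV5, PHLDA1 and JUN kept their direction and stayed past the threshold under all alternatives (pseudocount 16, quantile normalisation, centred medians, dim genes left out, mean of features, trended robust prior, array weights, neighbours' shift taken off, each array left out) except a test against a 1.5-fold change. In that test 0 of the 28 genes rose and 0 fell, against 2 and 4, while 126 and 230 of all genes did. With the neighbours' shift taken off 1 gene rose. With 1 array left out in turn 1 to 2 genes rose and 2 to 5 fell, the fewest without the passage 18, passage 38, 33.5-week or 35-week array. Array weights added EPHA2 and IER3. No paired analysis was possible because the labels give no replicate numbers that the groups share.

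Differences that changed sign were small and not past the threshold. With the neighbours' shift taken off they were 0.00073 for ARAF, -0.075 for MAP2K1, -0.012 for MAPK3, 0.10 for SPRY2 and -0.16 for SPRED1. After quantile normalisation they were -0.047 for MAP2K2, -0.053 for SOS1 and -0.0095 for SPRED1. With 1 array left out they ranged from -0.026 to 0.038 for MAP2K2, -0.12 to 0.10 for SOS1, -0.26 to 0.018 for SPRY2, -0.028 to 0.072 for SPRED1 and -0.031 to 0.68 for FOS. The cause was not tested. All genes higher numbered 2596 and lower 2746 with array weights, against 1665 and 1604, and 949 and 939 without the passage 38 array and 1035 and 1059 without the 35-week array.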
